A study of Homo sapiens with 6 samples.

Results

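The genes of oxidative phosphorylation were examined in 12Z cells, a human epithelial cell line derived from an endometriosis lesion, after knockdown of the long noncoding RNA LINC01133. The set held 95 of the 60660 annotated genes in the count files. It was drawn by gene symbol alone and comprised 82 nuclear genes for subunits of complexes I to V and the 13 protein-coding genes of the mitochondrial genome. Of these, 37 nuclear genes were assigned to complex I, 4 to complex II, 10 to complex III, 12 to complex IV and 19 to complex V. NDUFA4 and its paralogue NDUFA4L2 carry complex I symbols but were counted with complex IV, where the NDUFA4 protein resides. Control cells (n = 3) received a non-targeting siRNA and knockdown cells (n = 3) received 10 nM of the LINC01133a siRNA, both with Lipofectamine RNAiMAX, and all cells were lysed 72 h later. All 6 libraries came from 1 cell line, 1 targeting siRNA and 1 non-targeting siRNA, so loss of LINC01133 and any other action of that siRNA cannot be told apart. Poly(A)-selected RNA was sequenced, so each value depends on capture by the tail as well as on transcript level. Capture was not measured for any gene.

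Oxidative phosphorylation couples electron transfer through complexes I to IV of the inner mitochondrial membrane to proton pumping, and complex V, the ATP synthase, uses the resulting gradient to make ATP. Complexes I, III, IV and V are built from subunits of both genomes, while complex II is entirely nuclear-encoded. The mitochondrial genome is transcribed from both of its strands into long precursors that are cut into mRNAs, rRNAs and tRNAs. The nuclear genes are transcribed one by one, and NRF1, GABP (an ETS-family factor) and YY1 are known regulators of many of them.

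Libraries held between 27742562 and 37551194 counts on genes. LINC01133 was measured first as a check of the labels. Levels are given in CPM, the counts of a gene relative to the library total after scaling by TMM, which sets libraries to a common level over most genes. LINC01133 stood at 25.1, 25.3 and 25.9 CPM in control replicates 1, 2 and 3 and at 4.01, 4.05 and 4.28 CPM in knockdown replicates 1, 2 and 3. This was a log2 fold change of -2.63 ± 0.07 (SE) with an adjusted p of 3.45e-11 in edgeR's quasi-likelihood test, adjusted over all genes tested by the Benjamini-Hochberg method. Of the epithelial markers, the keratins KRT7, KRT8, KRT18 and KRT19 were present, while EPCAM did not exceed 0.681 CPM in any library. KRT8 ran from 3139.8 to 3293.8 CPM in control and from 2014.9 to 2145.0 CPM in knockdown cells. The stromal markers DCN and LUM were also present. Of the leukocyte markers, CD3E had no count and PTPRC stayed at or under 0.870 CPM, while CD14 ran from 49.3 to 55.4 CPM in control and from 25.5 to 27.5 CPM in knockdown cells. The endothelial markers PECAM1, VWF and CLDN5 reached at most 0.900 CPM. Markers moved with the groups, KRT19 from between 1208 and 1279 to between 667 and 678 CPM. KRT7 went from between 107 and 116 to between 71.3 and 76.4 CPM, and KRT18 from between 1701 and 1819 to between 1189 and 1235 CPM. Of the 4 stromal markers, MME went from between 14.4 and 18.0 to between 28.0 and 29.2 CPM, PDGFRB from between 71.4 and 80.5 to between 59.7 and 62.5 CPM, DCN from between 171 and 193 to between 143 and 170 CPM and LUM from between 339 and 378 to between 319 and 339 CPM. The part of these markers in the results below was not tested. In these bulk libraries, fewer cells of a type and less RNA per cell cannot be told apart. Control replicate 2 stood apart from the other controls. Genes of the mitochondrial genome took 3.03% of its counts against 3.96% and 4.10% in control replicates 1 and 3, and 4.72% to 5.05% in knockdown cells. The main mitochondrial results are therefore given with and without it.

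Of the 95 genes, 92 were tested. The 3 others were NDUFC2-KCTD14, with no count in any library, ATP5MF-PTCD1, with 1 to 3 counts, and ATP5MGL, with 0 to 2 counts. The first 2 of these are read-through loci whose exons lie entirely within other genes in GENCODE v44. A gene is called higher or lower in knockdown cells below when its adjusted p was under 0.05, and differentially expressed (DE) when its fold change also exceeded 1.5. Across all 15155 genes tested, 48.3% were called, 23.3% higher and 25% lower, and 11.7% were DE. Among the 92 subunit genes, 24 were higher and 20 lower, which is 47.8% of them. The share called was thus near that of all genes, but the calls were divided by genome of origin. Control and knockdown libraries did not overlap in 53 of the 92 (57.6%), against 57.3% of all genes tested. Of the 13 mitochondrial genes 12 were higher and none was lower, whereas of the 79 nuclear genes tested 12 were higher, 20 were lower and 47 were not called.

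**Figure D1:**
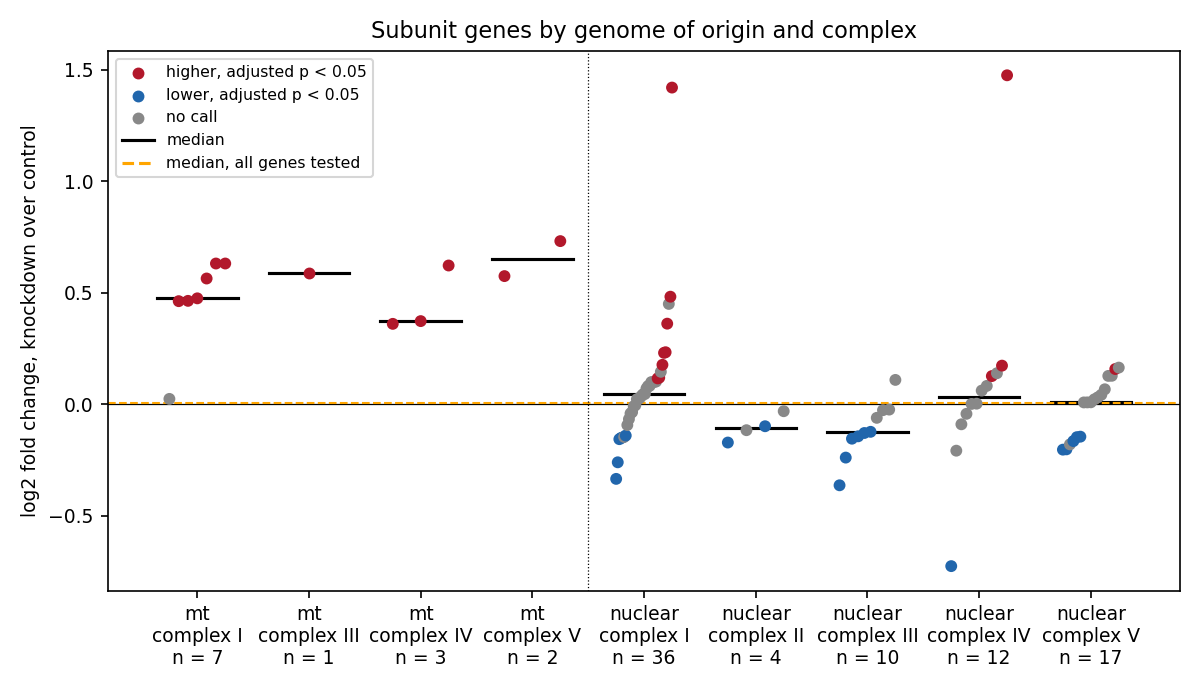
Log2 fold change of each tested subunit gene (1 point per gene, sorted within its column) by genome of origin and complex, coloured by call, with the median of each column as a black bar and the median of all genes tested as a dashed line. The medians of the 4 mitochondrial columns lie between 0.37 and 0.65, and those of the nuclear columns between -0.13 and 0.05.

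The split of nuclear genes into higher and lower depended on the scaling of the libraries. With library size alone in place of TMM, 23 nuclear genes were higher and 8 lower, and the corresponding counts over all genes went from 3532 higher and 3783 lower to 4701 higher and 2939 lower. The median log2 fold change of all genes tested was 0.0032 under TMM and 0.0655 with library size alone. No called subunit gene changed sign under any alternative. Of the 32 nuclear calls, 14 were kept under every alternative tried and 20 under every alternative other than library size alone. The 12 mitochondrial calls were kept under every alternative.

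Mitochondrial protein-coding transcripts were more abundant in knockdown cells in all 4 complexes that contain them. Their 13 levels summed to 25699, 20339 and 26588 CPM in control replicates 1, 2 and 3 and to 36283, 33699 and 35042 CPM in knockdown replicates 1, 2 and 3. Every knockdown library lay above every control library, and the means, 24208 ± 3381 (SD) and 35008 ± 1292 CPM, differed 1.45-fold. Without control replicate 2 the ratio was 1.34 and the groups still did not overlap. Expressed as a share of each library's counts, these 13 genes took 1.97% to 2.61% in control and 3.43% to 3.69% in knockdown cells. The 79 nuclear genes together took between 0.534% and 0.550% in all 6 libraries.

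**Figure D2:**
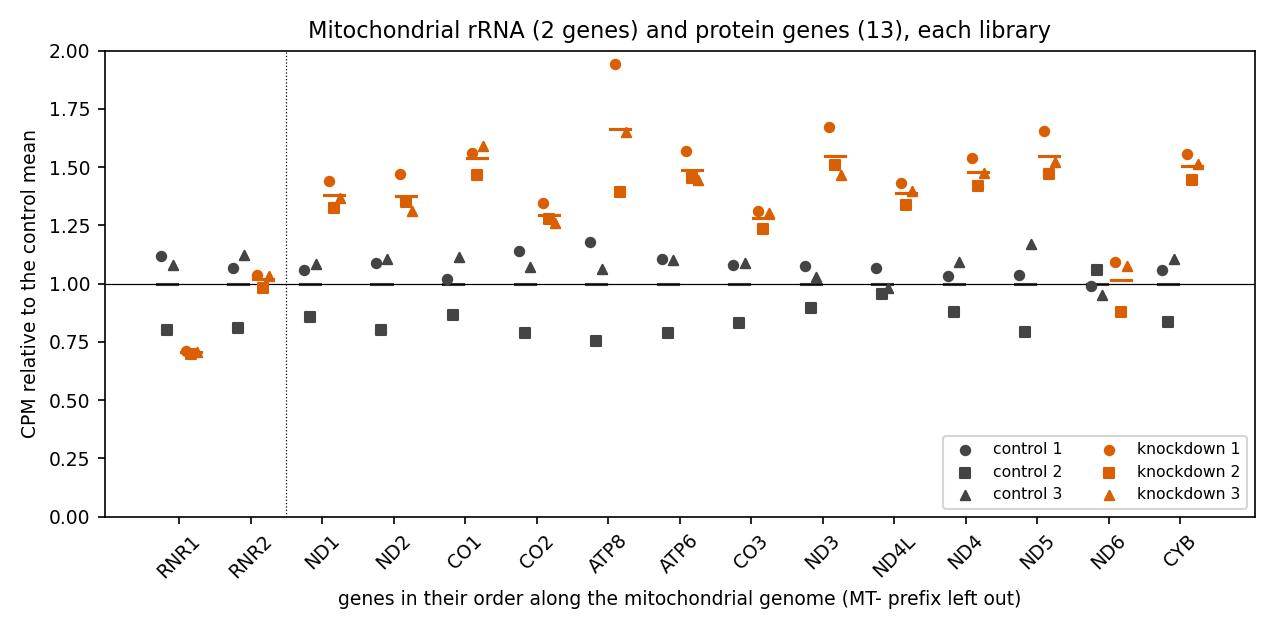
CPM of the 2 mitochondrial rRNA genes and the 13 mitochondrial protein genes in each library, divided by the control mean of that gene, with symbols for replicates and bars for group means. The 3 knockdown libraries lie above the 3 control libraries in 12 protein genes, overlap them in MT-ND6 and MT-RNR2, and lie below them in MT-RNR1.

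MT-CO1 (chrM:5904-7445, GRCh38, plus strand), the catalytic subunit of cytochrome c oxidase and the most abundant of the 13, stood at 6771, 5755 and 7386 CPM in control and at 10359, 9739 and 10550 CPM in knockdown cells. The lowest knockdown library exceeded the highest control library, and the log2 fold change was 0.62 ± 0.07 (SE, n = 3 per group, edgeR adjusted p = 7.36e-06). The other 2 mitochondrial subunits of complex IV changed less. MT-CO2 rose by 0.37 ± 0.10 on the log2 scale and MT-CO3 by 0.36 ± 0.08, and control and knockdown libraries did not overlap for either.

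MT-CYB (chrM:14747-15887), the only mitochondrial subunit of complex III and its quinone-oxidising core, ran from 1856 to 2447 CPM in control and from 3207 to 3453 CPM in knockdown cells. Its log2 fold change was 0.59 ± 0.08 (edgeR adjusted p = 3.22e-05). In complex V, MT-ATP6, part of the proton channel, rose by 0.57 ± 0.10 on the log2 scale. MT-ATP8, a short subunit of the same membrane sector, had 70.3, 44.9 and 63.3 CPM in control and 116, 82.9 and 98.4 CPM in knockdown cells, with a log2 fold change of 0.73 ± 0.13 (edgeR adjusted p = 0.000566). In the counts assigned to each gene, this was the largest change among the 13, and MT-ATP8 had the lowest CPM of them in control cells.

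The open reading frames of MT-ATP8 and MT-ATP6 overlap, and a read within the overlap cannot be assigned to either. The shared stretch (chrM:8527-8572, GRCh38, plus strand, 46 bases) makes up 22.2% of the exon of MT-ATP8 and 6.90% of that of MT-ATP6 together with its junction to MT-CO3. It is shown with the start codon of MT-ATP6 in capitals.

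MT-ATP8/MT-ATP6 overlap: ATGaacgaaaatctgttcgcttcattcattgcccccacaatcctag

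Complex I has 7 mitochondrial subunits, which form the proton-pumping part of its membrane arm. In 6 of them levels rose and the libraries of the groups did not overlap. MT-ND3 and MT-ND5 had the largest log2 fold changes, 0.63 ± 0.06 and 0.63 ± 0.10, followed by MT-ND4 at 0.56 ± 0.06. MT-ND4L, MT-ND1 and MT-ND2 changed by 0.47 ± 0.04, 0.46 ± 0.07 and 0.46 ± 0.09. The DE criterion was met by 5 of the 13 genes, namely MT-ND3, MT-ND5, MT-CYB, MT-CO1 and MT-ATP8. That count rested on control replicate 2. Without it, all 12 genes were still called higher, with log2 fold changes between 0.23 and 0.57 and a median over the 13 of 0.44 in place of 0.56, but none reached a fold change of 1.5.

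MT-ND6 (chrM:14149-14673, minus strand) differed from the other 12. It is the only one of the 13 that is read from the opposite strand of the mitochondrial DNA. Its levels were 77.4, 82.7 and 74.1 CPM in control and 85.4, 68.4 and 84.1 CPM in knockdown cells. The groups overlapped, and the log2 fold change was 0.02 ± 0.07 (edgeR adjusted p = 0.809). Whether poly(A) selection captured MT-ND6 as well as the other 12 was not tested. Strand-specific counting mattered here. In counts that ignored strand, MT-ND6 rose by 0.47 on the log2 scale and was called higher. More reads fell on the strand opposite to MT-ND6, within the same interval, than on its own: 503, 414 and 601 CPM in control and 783, 704 and 714 CPM in knockdown cells.

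The mitochondrial rRNAs did not follow the protein genes. MT-RNR1, the rRNA of the small mitochondrial ribosomal subunit, stood at 2454, 1761 and 2374 CPM in control and 1562, 1533 and 1551 CPM in knockdown cells. It was lower in knockdown cells, with a log2 fold change of -0.50 ± 0.09 (edgeR adjusted p = 0.00041). MT-RNR2, the large-subunit rRNA, stood at 12082, 9184 and 12741 CPM in control and 11776, 11132 and 11715 CPM in knockdown cells, and was not called (log2 fold change 0.03 ± 0.09, adjusted p = 0.827). Without control replicate 2, MT-RNR2 was also called lower, with a log2 fold change of -0.11. The ratio of protein-gene to rRNA counts was 1.77, 1.86 and 1.76 in control and 2.72, 2.66 and 2.64 in knockdown cells. This ratio was close in all 3 controls, replicate 2 included, and was 1.49-fold higher in knockdown cells (1.52-fold without control replicate 2). Poly(A) capture of rRNA against mRNA was not measured, so the ratio compares captured RNA only.

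Nuclear copies of mitochondrial DNA share sequence with these genes. Only reads with a single genomic position were kept, so reads that match a copy equally well are missing from the counts of both. Among 11 such annotated pseudogenes tested, 3 were called higher (27.3%, against 23.3% of all genes tested) and none lower. All 11 had a log2 fold change above 0, from 0.26 to 0.85, as had 7658 of the 15155 genes tested. Most of the 11 had low counts. MTATP6P1, the most abundant of them, went from 147 to 213 CPM (log2 fold change 0.53 ± 0.09, edgeR adjusted p = 0.00045), which was close to the 0.57 of MT-ATP6.

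Summed over the nuclear genes, the level was slightly lower in knockdown than in control libraries. The 79 genes totalled 5595, 5520 and 5490 CPM in control and 5352, 5358 and 5211 CPM in knockdown cells, a ratio of 0.959 with no overlap between groups. The ratio of mitochondrial to nuclear subunit counts was 4.59, 3.68 and 4.84 in control and 6.78, 6.29 and 6.73 in knockdown cells, 1.51-fold higher on average (1.40-fold without control replicate 2). This ratio is taken within a library and does not depend on its scaling. The difference in the nuclear sum did depend on it. In TPM, a unit that divides counts by transcript length and was not TMM-scaled here, the nuclear sum was 10410 ± 107 (SD) in control and 10345 ± 78.8 in knockdown cells and the groups overlapped. The mitochondrial sum in the same unit was 37088 ± 5130 and 54348 ± 2007, a ratio of 1.47.

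By complex, the summed CPM of nuclear genes was below control in every knockdown library in complexes II, III and V. These sums were not tested. Like the sum over all nuclear genes, they depend on the scaling, and they were not taken under another one. With library size alone, the genes called lower went from 6 to 1 in complex III. They went from 2 to 1 in complex II and from 5 to 3 in complex V. Complex II went from 237 ± 2.11 (SD) to 222 ± 1.23 CPM, complex III from 846 ± 10.3 to 790.0 ± 17.8 CPM, and complex V from 2204 ± 6.96 to 2041 ± 27.1 CPM. Complex I, at 1497 ± 34.2 and 1512 ± 19.9 CPM, and complex IV, at 752 ± 9.11 and 742 ± 19.3 CPM, overlapped.

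**Figure D3:**
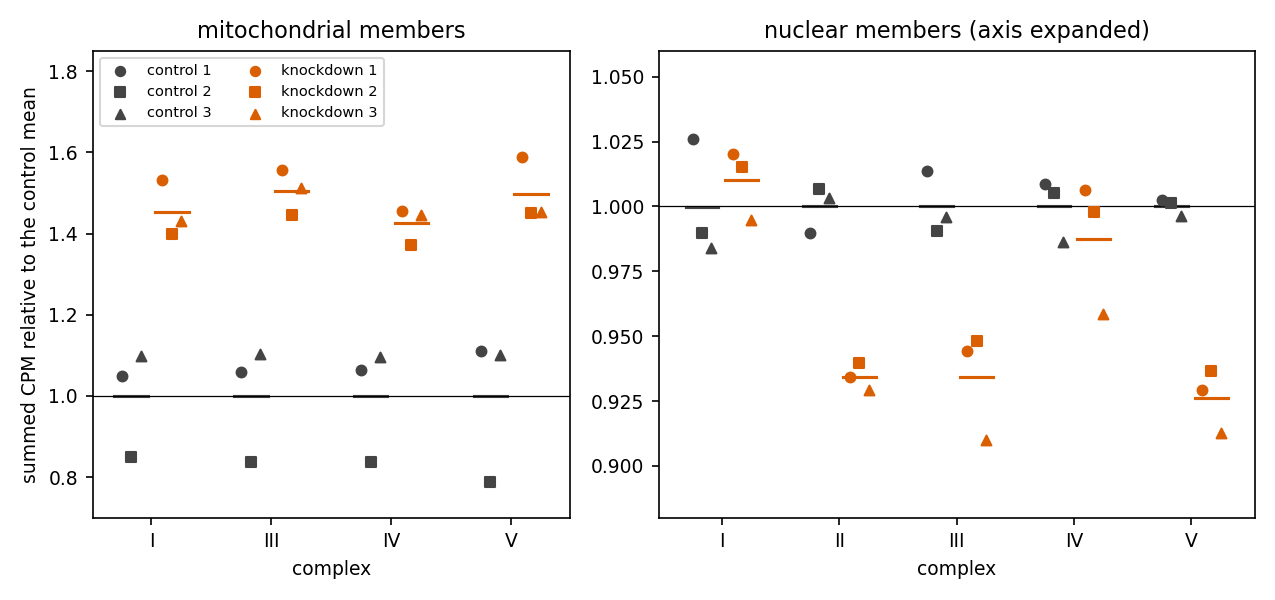
Summed CPM of the members of each complex in each library, divided by the control mean, for mitochondrial genes (left) and nuclear genes (right, on an expanded axis that does not start at 0), with bars for group means. Mitochondrial sums are 1.42 to 1.51 times the control mean in knockdown cells, and nuclear sums are 0.926 to 1.01 times.

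Complex III had the highest share of nuclear genes called lower. Of its 10 nuclear genes, 6 were lower (60.0%, against 25% of all genes tested) and none was higher. In 9 the log2 fold change was below 0, and the median was -0.13. UQCRFS1, the Rieske iron-sulfur protein that passes electrons on from quinol, stood at 105, 106 and 98.7 CPM in control and 92.6, 95.5 and 89.7 CPM in knockdown cells (log2 fold change -0.15 ± 0.04, edgeR adjusted p = 0.00742). UQCRB, a small structural subunit, stood at 160.3, 159 and 163 CPM in control and between 145.1 and 145.7 CPM in knockdown cells. Its log2 fold change was -0.14 ± 0.03. UQCRC2, a core scaffold protein, and UQCRH, the acidic hinge protein, changed by -0.13 ± 0.04 and -0.12 ± 0.04. Leaving out any of control 1, knockdown 1 and knockdown 3 removed the call of UQCRH, and without knockdown 3 its log2 fold change was -0.08.

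The 2 largest decreases in complex III were in weakly counted genes. UQCR11, a small accessory subunit, went from 10.6 ± 0.64 (SD) to 8.95 ± 0.08 CPM, a log2 fold change of -0.24 ± 0.08 that was not called with DESeq2 or when any of control 1, knockdown 1 and knockdown 2 was left out. UQCRHL, a close copy of UQCRH, stood at 10.2, 9.01 and 7.97 CPM in control and at 7.33, 6.84 and 6.94 CPM in knockdown cells. Its log2 fold change was -0.36 ± 0.10 (edgeR adjusted p = 0.0083). Reads that match UQCRH and UQCRHL equally well are not in the counts, so the 2 values are uncertain. CYC1, the heme-bearing subunit that reduces cytochrome c, and UQCRC1, UQCR10 and UQCRQ were not called, with log2 fold changes of -0.03, -0.06, -0.02 and 0.11. With library size alone, UQCRHL was the only gene of the 6 still called lower, and UQCRQ was called higher.

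Complex II oxidises succinate and has 4 subunits. SDHD and SDHC, which anchor the enzyme in the membrane and bind quinone, were both lower. SDHD stood at 72.1, 75.7 and 74.4 CPM in control and 65.0, 67.3 and 64.9 CPM in knockdown cells, or a log2 fold change of -0.17 ± 0.04 (edgeR adjusted p = 0.00258), and kept its call under every alternative. SDHC stood at 74.1, 75.0 and 77.4 CPM in control and 71.2, 70.5 and 69.7 CPM in knockdown cells. Its log2 fold change of -0.10 ± 0.04 lost its call under 8 of the alternatives. SDHB, the iron-sulfur subunit, was not called (-0.03 ± 0.04). SDHA, the flavoprotein, could not be judged from these counts, since 69.4% of its exons lie in another annotated gene and its level was only 4.28 CPM in control cells.

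Of the 17 complex V genes tested, 5 were lower (29.4%, against 25% of all genes tested), 1 was higher (5.88%, against 23.3%) and 11 were not called. With library size alone 3 were lower, since ATP5F1C and ATP5MC3 lost their calls, and 5 were higher. Among the 5 subunits of the catalytic head, ATP5F1A, ATP5F1B and ATP5F1C were lower and ATP5F1D and ATP5F1E were not called. ATP5F1B (chr12:56638175-56645984), the catalytic beta subunit and the most abundant nuclear gene of the set by CPM, stood at 563, 567 and 565 CPM in control and 491, 497 and 483 CPM in knockdown cells. Its control libraries spanned under 4 CPM, all knockdown libraries lay below them, and the log2 fold change was -0.20 ± 0.03 (edgeR adjusted p = 0.000202). ATP5F1A, the alpha subunit that alternates with beta in the head, stood at 449, 448 and 450.3 CPM in control and 401, 412 and 388 CPM in knockdown cells, or a log2 fold change of -0.17 ± 0.04. ATP5F1C, the gamma subunit of the rotating central shaft, stood at 221, 222 and 224 CPM in control and at 196, 205 and 202 CPM in knockdown cells, and changed by -0.15 ± 0.04.

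In the peripheral stalk, which holds the head against rotation, ATP5PB fell from 205, 212 and 206 CPM in control to 179, 184 and 178 CPM in knockdown cells, or a log2 fold change of -0.20 ± 0.04 (edgeR adjusted p = 0.000349). ATP5PD, from the same stalk, was the only complex V gene called higher. It stood at 115, 115 and 118 CPM in control and at 135, 128 and 124 CPM in knockdown cells, with no overlap and a log2 fold change of 0.16 ± 0.04, and it lost its call in counts that ignored strand. ATP5PF and ATP5PO, the other stalk genes of the set, were not called (0.04 ± 0.04 and -0.18 ± 0.10). The membrane ring of complex V is encoded by 3 genes with the same mature protein. Of these, ATP5MC3 was lower (148 ± 3.88 to 133 ± 0.57 CPM, log2 fold change -0.15 ± 0.04), while ATP5MC1 and ATP5MC2 were not called, both with a log2 fold change of 0.01. The remaining small membrane subunits ATP5ME, ATP5MF, ATP5MG, ATP5MJ and ATP5MK had log2 fold changes between 0.01 and 0.16, and none was called.

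Complex IV contained the nuclear gene with the largest decrease. COX7B (chrX:77899440-77907376), a small structural subunit of cytochrome c oxidase, stood at 76.8, 77.7 and 67.4 CPM in control and 46.0, 43.7 and 44.3 CPM in knockdown cells. The groups were separated by over 20 CPM, and the log2 fold change was -0.73 ± 0.05 (edgeR adjusted p = 2.16e-07), a decrease of 39.6%. It was the only subunit gene that was DE and lower. None of the other 11 nuclear genes of complex IV was called lower, and their median was near 0. COX4I1, the largest nuclear subunit, and COX7A2, an isoform that is expressed in most tissues, were called higher by 0.13 ± 0.04 and 0.17 ± 0.06 on the log2 scale, although control and knockdown libraries overlapped for COX7A2. The COX4I1 call was lost when any of control 1, control 2 and knockdown 1 was left out, and that of COX7A2 when any of control 1, knockdown 1 and knockdown 2 was. COX5A, COX6C, COX6B1, COX7C and COX5B had log2 fold changes between -0.04 and 0.08 and were not called.

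NDUFA4L2 (chr12:57234903-57240715), a paralogue of NDUFA4 known as a hypoxia-responsive gene, was DE and higher, at the lowest edge of detection. It had 14, 14 and 11 raw counts in control and 59, 39 and 19 in knockdown cells. The lowest knockdown library, at 0.666 CPM, lay above the highest control library, at 0.487 CPM, and the log2 fold change was 1.48 ± 0.32 (edgeR adjusted p = 0.00191). NDUFA4 itself, at 89.2 CPM in control cells, was not called (-0.09 ± 0.05).

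Complex I had calls in both directions. Of 36 nuclear genes tested, 8 were higher, 6 were lower and 22 were not called, with a median of 0.05. The shares, 22.2% higher and 16.7% lower, stand beside 23.3% and 25% of all genes tested. With library size alone, 12 were higher and 2 lower. The strongest decrease was in NDUFA12, an accessory subunit of the peripheral arm, at 33.3, 31.8 and 34.1 CPM in control and 27.5, 26.7 and 24.3 CPM after knockdown (log2 fold change -0.34 ± 0.06, edgeR adjusted p = 0.000275). NDUFS5, an accessory subunit facing the intermembrane space, went from 84.9 ± 2.61 (SD) to 70.8 ± 3.77 CPM, a log2 fold change of -0.26 ± 0.05. NDUFB6, of the membrane arm, changed by -0.16 ± 0.05 and lost its call without knockdown replicate 1 or 3. NDUFS1, the large iron-sulfur subunit of the electron-input module, stood at 137, 140 and 135 CPM in control and at 125, 127 and 121 CPM in knockdown cells, or a log2 fold change of -0.15 ± 0.04 (edgeR adjusted p = 0.00421).

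Among the complex I genes called higher, NDUFA2, an accessory subunit of the electron-input module, stood at 30.7, 28.4 and 28.8 CPM in control and at 38.2, 37.3 and 37.3 CPM in knockdown cells. Its log2 fold change was 0.36 ± 0.05 (edgeR adjusted p = 3.47e-05). NDUFA10, of the membrane arm, rose from 97.5, 93.1 and 97.3 CPM to 114, 112 and 112 CPM, a log2 fold change of 0.23 ± 0.04. NDUFV3, of the electron-input module, rose by the same amount, 0.23 ± 0.05. The calls of NDUFA8, NDUFC1 and NDUFS3, at log2 fold changes of 0.12, -0.15 and -0.14, were each lost under 7 of the alternatives.

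**Figure D4:**
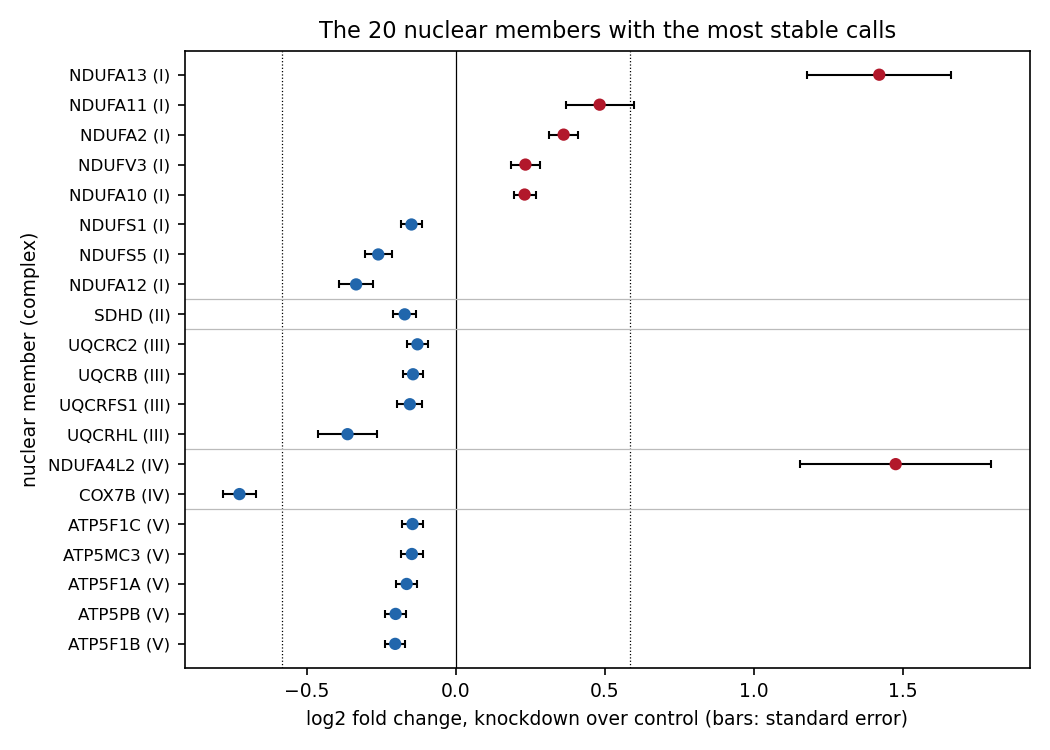
Log2 fold change with its standard error for the 20 nuclear genes whose call in knockdown against control cells was kept under every alternative other than library size alone, grouped by complex, red for higher and blue for lower, with dotted lines at a fold change of 1.5 in either direction. Of these 20, only COX7B, NDUFA13 and NDUFA4L2 lie outside the dotted lines.

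The 2 complex I genes with the largest increases were ones whose counts cover a small part of the gene. NDUFA13 (chr19:19515736-19529054) had 83.9% of its exon length inside another annotated gene on the same strand, where reads count for neither. Its remaining counts gave 0.410, 0.418 and 0.736 CPM in control and 1.39, 1.38 and 1.44 CPM in knockdown cells, or a log2 fold change of 1.42 ± 0.24 (edgeR adjusted p = 0.000302). NDUFA11 had 68.2% of its exon length shared and changed by 0.48 ± 0.11, from 4.84 ± 0.58 (SD) to 6.78 ± 0.63 CPM. Whether these values hold for the whole genes was not tested. In all, 14 nuclear genes had over 20% of their exon length shared, among them NDUFV2 (90.0%), NDUFA7 (77.9%), NDUFB8 (72.0%) and ATP5PO (63.8%), which were not called. Of the 67 tested genes with at most 20% shared, 10 were higher (14.9%), 19 lower (28.4%) and 38 not called, with a median of 0.0021. Over all genes tested, 23.3% were higher and 25% lower.

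Levels were compared between genes per kilobase of coding sequence, in control cells. Reads over untranslated regions were counted but the length of those regions was not. Genes with a short coding sequence and long untranslated regions therefore stand too high on this scale. Medians were far higher for mitochondrial than for nuclear genes of the same complex, although MT-ND6 and MT-ATP8 lay below the highest nuclear genes of theirs. The median CPM per kilobase was 1361 for mitochondrial and 79.3 for nuclear genes of complex I, 4304 and 262 in complex IV, and 1035 and 237 in complex V. Complex II and complex III had nuclear medians of 124 and 117. MT-CO2 was highest at 5199 CPM per kilobase, and MT-ND6 was lowest of the 13 at 149. On this scale the 5 highest nuclear genes were ATP5F1E at 742, COX7C at 548, UQCRB at 483, UQCRH at 423 and NDUFA4 at 367 CPM per kilobase. ATP5F1E and NDUFA4 have coding sequences of 153 and 243 bases in canonical transcripts of 3610 and 2035 bases. For ATP5F1B, the highest nuclear gene by CPM, these lengths are 1587 and 1759 bases. Genes were not ranked by transcript length. The 5 lowest were SDHA at 2.15, NDUFA4L2 at 1.60, NDUFA13 at 1.21, NDUFV2 at 0.975 and NDUFA7 at 0.780 CPM per kilobase. Apart from NDUFA4L2, these 5 share over 69% of their exon length with another gene, so their levels are understated.

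The direction of change among nuclear genes went with their level. Of the 15 with a mean control level over 100 CPM, 10 were lower and 1 was higher, with a median log2 fold change of -0.14. Of the 52 between 10 and 100 CPM, 8 were higher and 9 lower, with a median of 0.03. In percent, 66.7% of the first group were lower and 6.67% higher, and 17.3% of the second group were lower and 15.4% higher. Among protein-coding genes tested, 46.6% of the 2552 over 100 CPM were lower and 15.5% higher, with a median of -0.09. Of the 6636 between 10 and 100 CPM, 27.2% were lower and 29.7% higher, with a median of 0.01. The shares of the set were not tested against these.

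**Figure D5:**
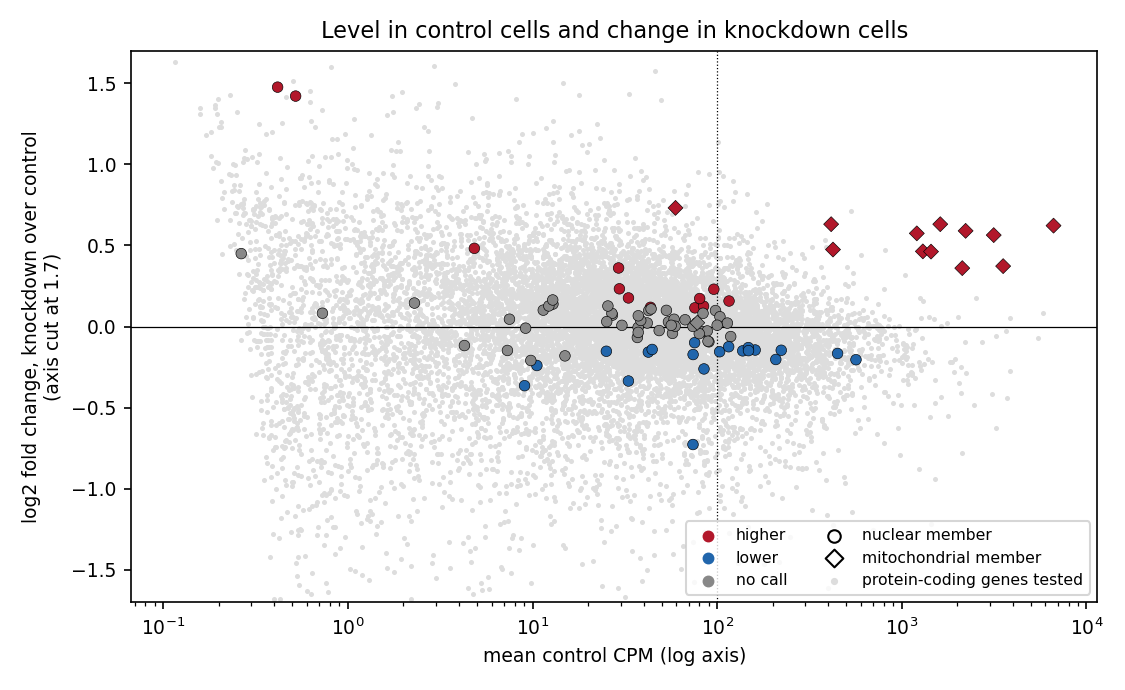
Log2 fold change against mean control CPM on a log axis for nuclear genes (circles) and mitochondrial genes (diamonds) of the set, coloured by call, over all tested protein-coding genes (grey), with a dotted line at 100 CPM. Nuclear genes right of the line lie mostly below 0, as do the grey points there, and 12 of the 13 mitochondrial genes lie between 0.36 and 0.73.

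Nuclear promoters were compared for words bound by the known regulators of these genes. RefSeq windows from 250 bases before to 50 bases after the transcription start (GRCh38.p14) were found for 64 of the 82 nuclear genes, taking the annotated start nearest to that of the GENCODE canonical transcript. The words searched were CGCATGCG for NRF1, which reads the same on both strands, CCGGAAG for ETS factors such as GABP, and AAGATGGC for YY1, the last 2 on either strand. The ETS and YY1 words can overlap by 3 bases. The NRF1 word was in 10 of the 64 windows (15.6%), against 2.24% of all 27305 promoters and 4.04% of those of tested genes. The ETS word was in 21 (32.8%) against 10.9% and 19.6%, and the YY1 word in 12 (18.8%) against 3.13% and 5.66%.

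The words were present in genes of either direction and in genes not called. At least 1 of the 3 was in 4 of 10 windows of genes called higher, 8 of 14 of genes called lower and 25 of 39 of genes not called. The YY1 word was in none of the windows of genes called higher, 1 of those called lower and 11 of those not called. The windows below are those of every called nuclear gene that held the NRF1 word. SDHD (chr11:112086623-112086922, plus strand) and ATP5F1C (chr10:7787927-7788226, plus strand) were lower, and NDUFA8 (chr9:122159730-122160029, minus strand) was higher. Capitals mark the NRF1 word, which starts at base -109 in SDHD, -21 in ATP5F1C and -3 in NDUFA8 relative to the start, and the ETS word of SDHD at -77. A match is a description of the letters and not of binding.

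SDHD: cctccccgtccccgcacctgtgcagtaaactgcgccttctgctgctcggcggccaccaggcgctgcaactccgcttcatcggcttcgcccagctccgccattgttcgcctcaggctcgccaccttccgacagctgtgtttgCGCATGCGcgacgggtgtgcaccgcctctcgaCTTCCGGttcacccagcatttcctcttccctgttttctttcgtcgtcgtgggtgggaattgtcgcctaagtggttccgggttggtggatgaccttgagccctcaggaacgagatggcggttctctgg

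ATP5F1C: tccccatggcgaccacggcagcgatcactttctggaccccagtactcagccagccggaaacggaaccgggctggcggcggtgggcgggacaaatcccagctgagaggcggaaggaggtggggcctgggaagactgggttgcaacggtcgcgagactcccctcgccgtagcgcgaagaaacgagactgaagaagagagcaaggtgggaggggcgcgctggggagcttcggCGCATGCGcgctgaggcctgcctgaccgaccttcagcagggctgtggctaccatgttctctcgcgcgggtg

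NDUFA8: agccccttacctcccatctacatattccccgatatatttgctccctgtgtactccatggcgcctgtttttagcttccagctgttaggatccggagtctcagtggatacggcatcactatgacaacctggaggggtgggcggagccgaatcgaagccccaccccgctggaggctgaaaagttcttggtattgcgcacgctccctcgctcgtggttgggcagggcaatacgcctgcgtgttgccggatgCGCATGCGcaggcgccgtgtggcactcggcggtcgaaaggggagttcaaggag

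Messenger RNAs can also carry short matches to the seed of an siRNA, bases 2 to 8 of either strand. The strands of the LINC01133a siRNA are shown with those bases in capitals, since their reverse complements, AGAATGG for the antisense and GTAACTT for the sense strand, were counted in the annotated 3′ UTRs.

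LINC01133a antisense strand: uCCAUUCUcagguaacuucaa

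LINC01133a sense strand: gAAGUUACcugagaauggatt

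Among 78 nuclear genes with an annotated 3′ UTR, 6 held the antisense-strand match (7.69%) and 4 the sense-strand match (5.13%). The shares over all 12538 genes tested were 17.1% and 13.6%, but their median 3′ UTR was 1360 bases long against 194 in the nuclear genes. Over all tested genes the median log2 fold change was -0.09 with an antisense-strand match and 0.0014 without. For the sense strand it was -0.0437 with a match and -0.0062 without. In the nuclear genes of the set the medians were -0.0501 and 0.015 for the antisense strand and -0.1199 and 0.0219 for the sense strand. The length of the 3′ UTR was not taken into account, and an effect of the matches was not tested. Matches were present in 3 of the 20 lower genes, UQCRB (antisense strand), NDUFS1 and NDUFB6 (sense strand). The match in NDUFB6 starts at base 79 of an 875-base 3′ UTR on chromosome 9 and reads, with 10 bases before and 5 after, as follows.

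NDUFB6 3′ UTR: ttctggaaaaGTAACTTtaata

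COX7B, ATP5F1A, ATP5F1B and ATP5PB held no match. NDUFV3, with an antisense-strand match, was higher. The other nuclear genes with a match were not called. They were NDUFA5, NDUFC2 and NDUFA9 (antisense strand), COX5A (sense strand) and NDUFA4 (both strands).

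Genes that assemble, transcribe or regulate these complexes were counted from lists. Of 6 tested further subunits and isoforms, 2 were higher and 1 was lower, a share called close to the 48.3% of all genes tested. CYCS, the mobile cytochrome c that links complexes III and IV, fell from 235, 247 and 246 CPM in control to 192, 198 and 189 CPM in knockdown cells, or a log2 fold change of -0.33 ± 0.04 (edgeR adjusted p = 9.53e-06). DMAC2L, a coupling factor of complex V, and COX7A2L, which takes part in supercomplexes, were higher by 0.39 ± 0.07 and 0.20 ± 0.04 on the log2 scale. Of 51 tested assembly factors 12 were higher and 7 lower (37.3% called, against 48.3% of all genes tested). The 2 highest, PET100 (log2 fold change 0.74 ± 0.17) and COX20 (0.59 ± 0.05), and 1 of the 2 lowest, TACO1 (-0.35 ± 0.05), act on complex IV, TACO1 as a translational activator of MT-CO1. TIMMDC1, an assembly factor of complex I, had the lowest value, -0.45 ± 0.06. COX20 stood at 28.6, 28.9 and 30.7 CPM in control and at 45.3, 43.4 and 44.1 CPM in knockdown cells.

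Of 31 genes for mitochondrial transcription and RNA processing, 5 were higher and 5 lower (32.3% called, against the same 48.3%), with a median of -0.02. TOP1MT, the mitochondrial type I topoisomerase, and FASTK, an RNA-binding protein with a mitochondrial form known to act on MT-ND6 mRNA, were highest at 0.53 ± 0.05 and 0.45 ± 0.06. FASTKD1, a related protein, and MTPAP, the mitochondrial poly(A) polymerase, were lowest at -0.32 ± 0.05 and -0.26 ± 0.05. MTPAP stood at 47.2, 47.9 and 46.6 CPM in control and 38.0, 38.9 and 41.5 CPM in knockdown cells. Of 12 tested regulators of nuclear subunit genes, 3 were higher and 6 lower (75.0% called, against 48.3%). PPARGC1B, a coactivator of mitochondrial biogenesis, stood at 13.3, 14.1 and 11.8 CPM in control and 5.74, 5.97 and 7.40 CPM in knockdown cells, or a log2 fold change of -1.05 ± 0.10 (edgeR adjusted p = 2.87e-06). HIF1A, the oxygen-regulated transcription factor, changed by -0.50 ± 0.05, and ESRRA, a nuclear receptor, by 0.43 ± 0.07. Among the factors whose words were searched in the promoters, NRF1, YY1 and the GABP subunit GABPB1 were lower, by -0.16 ± 0.05, -0.19 ± 0.04 and -0.13 ± 0.05. The subunit GABPB2 was higher, at 0.24 ± 0.08, and GABPA, which binds the DNA, was not called (adjusted p = 0.995). With library size alone, NRF1 and GABPB1 were no longer called.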

How the data were processed

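RNA from 3 control and 3 LINC01133 knockdown cultures of 12Z cells was sequenced as paired-end reads. The authors aligned reads with STAR 2.7.6a to GRCh38.p13 with GENCODE v36, kept only uniquely mapped reads and deposited raw gene counts in 3 columns (unstranded and each strand). Counts of read pairs whose first read is antisense to the gene were used here, since they made up 93.9% to 94.1% of strand-assigned counts. Reads over 2 genes of the same strand are not counted. Gene names, positions and exon overlaps came from GENCODE v44, where 60419 of 60660 genes matched. Genes were kept by filterByExpr (15155) and tested with edgeR 4.0.16 (TMM, quasi-likelihood, no covariate, Benjamini-Hochberg over all genes tested) in R 4.3.3. The common biological coefficient of variation was 0.0439. On simulated data edgeR and DESeq2 1.42.0 each recovered 200 of 200 changed genes, with 7 and 8 false calls. Recovery of differences as small as those of most called nuclear genes was not tested. The p-values measure the spread between cultures of 1 cell line. Alternatives were DESeq2, other scalings and filters, unstranded counts, a replicate block and leaving out each library. The members and gene lists were chosen with earlier results of these data known. Named were all mitochondrial members, the 3 highest and 3 lowest called nuclear members per complex, all members that were DE or not tested, the 5 highest and 5 lowest nuclear levels and 2 genes per direction in each list. Other genes were named after their values were seen. An individual result for 1 gene is not reported here.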

Additional observations from a re-analysis of the deposited data

Results flagged for a closer look

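Reads on the strand opposite to the annotated gene were not part of the comparisons. Over 2 of the 13 mitochondrial protein genes they were more abundant in every knockdown library than in every control library. Over the others the groups overlapped, with ratios of knockdown to control means from 0.696 to 1.495. Opposite to MT-ND6 the mean was 506 ± 93.7 (SD) CPM in control and 734 ± 43.0 CPM in knockdown cells, a ratio of 1.449. These reads lie on the plus strand, the strand on which the other 12 genes are annotated. They amounted to 501% to 1028% of the sense counts of MT-ND6. Opposite to MT-CO1 there were 59.3, 40.4 and 70.3 CPM in control and 90.5, 71.3 and 74.8 CPM in knockdown cells, a ratio of 1.3916, and these reads amounted to 0.702% to 0.952% of the sense counts of that gene. The gap between the highest control and the lowest knockdown library was small for MT-CO1. Summed over the 12 genes other than MT-ND6, opposite-strand reads came to 578 ± 59.0 CPM in control and 583 ± 62.9 CPM in knockdown cells. These differences were not tested. The ratios of MT-ND6 and MT-CO1 include control replicate 2, the lowest library for both.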

How the results depend on the processing

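With library size alone, 23 nuclear genes were higher and 8 lower, against 12 and 20 under TMM, and 9 of 92 subunit genes changed sign, none of them called. Leaving out 1 library at a time gave 3 to 10 DE subunit genes against 8, the 3 (COX7B, NDUFA13 and NDUFA4L2) without control replicate 2. It gave 8 to 12 nuclear genes higher and 14 to 22 lower, 12 mitochondrial genes higher and none lower each time, and -2.65 to -2.61 for LINC01133. DESeq2 kept 38 of the 44 calls. The replicate numbers did not pair the libraries (correlations of same-numbered deviations -0.015, 0.00488 and 0.057). With the replicate block, nuclear genes were 10 higher and 19 lower, mitochondrial genes 12 higher and 0 lower, 9 subunit genes were DE, LINC01133 changed by -2.63 and over all genes 3488 were higher and 3763 lower. Of the 44 calls, 41 were shared with the blocked fit. SDHC and NDUFA8 were among those that lost theirs. The other alternatives moved none of these counts by over 1.5 times. Why library scaling and control replicate 2 carried this weight was not tested. Exons shared with another gene over more than 20% of their length limit what can be said of 12 of the 79 nuclear genes tested.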
